A study of Mus musculus with 3 samples.

Results

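The genes described here are 10 genes of the actin cytoskeleton, in macrophages sorted from mouse colon: the beta-thymosins Tmsb4x and Tmsb10, the cytoplasmic actins Actb and Actg1, and the actin regulators Pfn1, Cfl1, Coro1a, Arpc1b, Arpc2 and Lcp1. They were taken by symbol from the 23997 rows of the deposited tables, and all 10 were present and passed the filter used below, a level averaging 1 FPKM or more across the 3 libraries, as did 11114 genes in all. FPKM counts fragments per kilobase of transcript, scaled to library depth, a level per length, so that genes can be set beside each other. The set was chosen by the measured FPKM of Tmsb4x, known to be lower than in WT, so its own differences are a description. The question was how far the other actin genes shared them.

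RNA came from Siglec-F-negative, Ly6C-low, CD64-positive colonic macrophages of untreated male C57BL/6 mice of 3 genotypes. Tle3cKO mice carried floxed Tle3 with Lyz2-Cre, Tle4cKO mice carried floxed Tle4 with Lyz2-Cre, and the mice called WT carried Lyz2-Cre without a floxed allele, so Cre, which is expressed in the myeloid lineage from the lysozyme 2 locus, was common to all. Ages are given as 8.9 weeks, and as 9 weeks in the protocol. Cells were pooled by genotype, from 3 Tle3cKO, 4 Tle4cKO and 4 WT mice, and each pool gave 1 library, so no difference has a replicate check and none was tested.

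The targeted genes do not follow the labels in full. Tle3 had 70.7 FPKM in the library labelled Tle3cKO, 46.9 FPKM in Tle4cKO and 38.6 FPKM in WT, so it was highest where it was to be deleted. Tle4 had 11.0 FPKM in the library labelled Tle3cKO, 5.80 FPKM in Tle4cKO and 8.50 FPKM in WT, lowest in Tle4cKO. A value over the whole gene does not show whether the floxed exons were lost. Summed over all rows, the libraries held 569961 FPKM in the library labelled Tle3cKO, 598023 FPKM in Tle4cKO and 610714 FPKM in WT. The steps of low values put the depth at 0.968 of WT for the library labelled Tle3cKO and at 1.21 of WT for Tle4cKO, while the absolute depth is unknown. The macrophage markers summed to 5820, 6159 and 6399 FPKM in the same order of libraries, and all 12 passed the filter, although Lyz2 itself had only 10.4 to 11.7 FPKM.

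Actin exists as monomers and as filaments, and cells hold a large reserve of monomers ready for growth. Beta-thymosins bind monomers and keep them out of filaments, profilin passes monomers to growing filament ends, and cofilin severs and takes apart old filaments. The Arp2/3 complex starts branches on existing filaments, and coronin 1A and L-plastin, the products of Coro1a and Lcp1, bind filaments in leukocytes. Macrophages use this machinery to move, to probe tissue and to take up particles.

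Tmsb4x (ENSMUSG00000049775.16, mm10 chrX:167207093-167209315, minus strand) encodes thymosin beta-4, the main monomer-sequestering peptide of many cells. Its level was 7563 FPKM in the library labelled Tle3cKO and 8520 FPKM in Tle4cKO, against 17707 FPKM in WT. The library labelled Tle3cKO thus held 0.427 of the WT level and Tle4cKO 0.481 of it, and the 2 lay close to each other and far below WT. Among all rows of its library Tmsb4x ranked 7 in the library labelled Tle3cKO, 7 in Tle4cKO and 2 in WT. It made up 1.33% of the summed FPKM in the library labelled Tle3cKO, 1.42% in Tle4cKO and 2.90% in WT.

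The log2 ratio of Tmsb4x, on FPKM plus a pseudocount of 1, was -1.23 in the library labelled Tle3cKO against WT and -1.06 in Tle4cKO against WT. Counting itself, 15 of the 11114 genes (0.135%) had a ratio as low in the first comparison and 44 (0.396%) in the second. Of the 164 genes that averaged 500 FPKM or more, called abundant here, Tmsb4x had the lowest ratio to WT in both comparisons. Both comparisons use the same WT library, so a high value there lowers both ratios together. In Tle4cKO against the library labelled Tle3cKO its log2 ratio was 0.17.

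**Figure D1:**
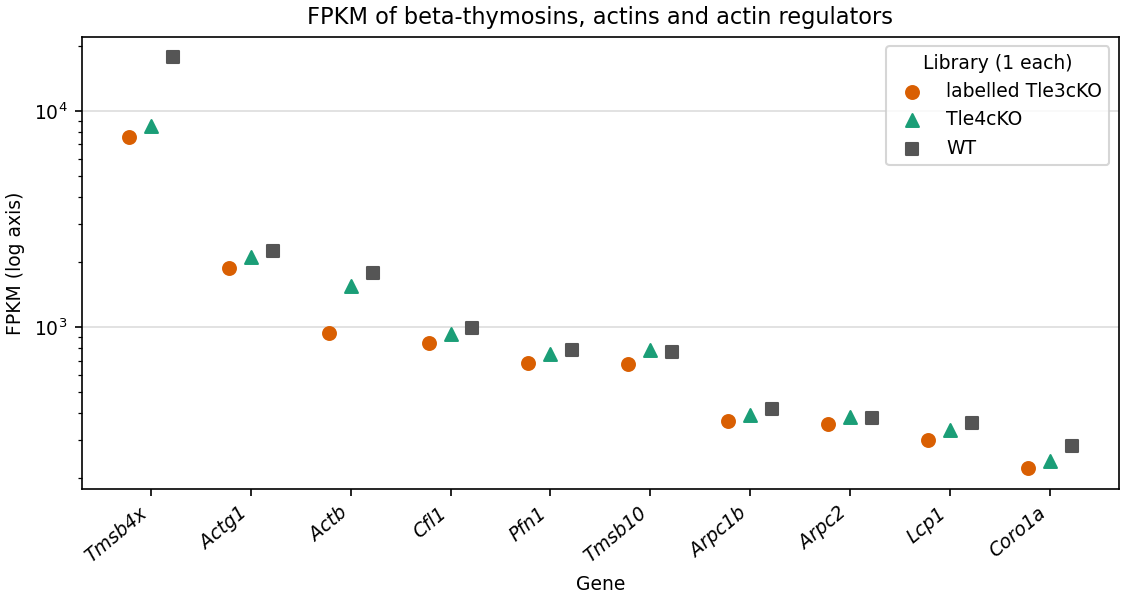
FPKM (log axis) of the 10 genes, with 1 point per library: circles for the library labelled Tle3cKO, triangles for Tle4cKO and squares for WT. Tmsb4x stood at 7563 FPKM in the library labelled Tle3cKO, 8520 FPKM in Tle4cKO and 17707 FPKM in WT, Actb was low in the library labelled Tle3cKO alone, at 939 FPKM, and the 3 points of every other gene lay close together.

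Tmsb10 (ENSMUSG00000079523.8, mm10 chr6:72957347-72958748, minus strand) encodes thymosin beta-10, the closest relative of thymosin beta-4 among the 10 genes and also a monomer binder. It had 678 FPKM in the library labelled Tle3cKO and 786 FPKM in Tle4cKO, against 766 FPKM in WT. Its log2 ratios to WT were -0.18 and 0.04, so it was lower in the first comparison, by far less than Tmsb4x, and not lower in the second. The level of Tmsb4x relative to Tmsb10 within a library, which no scaling between libraries can move, was 11.2 in the library labelled Tle3cKO and 10.8 for Tle4cKO, against 23.1 in WT. To show how far reads of these relatives can be told apart, their coding sequences are printed below from GENCODE M21 transcripts, in lower case with the bases that differ between them in capitals.

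Tmsb4x: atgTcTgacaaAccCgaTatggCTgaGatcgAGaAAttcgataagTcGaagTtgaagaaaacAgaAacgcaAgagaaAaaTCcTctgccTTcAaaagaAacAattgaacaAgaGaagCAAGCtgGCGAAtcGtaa
Tmsb10: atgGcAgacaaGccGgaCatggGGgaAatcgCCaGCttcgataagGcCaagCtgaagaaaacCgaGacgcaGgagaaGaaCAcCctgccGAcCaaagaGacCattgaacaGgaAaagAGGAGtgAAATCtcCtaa

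Each coding sequence has 135 bases, or 44 codons without the stop, and they differ at 40 bases, which leaves 70.4% identical. The longest run of identical bases is 10. None of the 1362 distinct 50-base stretches of the annotated Tmsb4x transcripts occurs in a transcript of another annotated gene. Inexact matches and copies that are not annotated were not searched. For Tmsb10, 27% of such stretches also occur in 5 other genes, of which 4 are pseudogenes and none has a row in the tables. The Tmsb10 row may therefore take in or lose reads of copies.

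The actins did not move alike. Actb (ENSMUSG00000029580.14, mm10 chr5:142903115-142906754, minus strand), beta-actin, had 939 FPKM in the library labelled Tle3cKO and 1550 FPKM in Tle4cKO, against 1788 FPKM in WT. Here the library labelled Tle3cKO stood apart from the other libraries, with a log2 ratio of -0.93 to WT, against -0.21 for Tle4cKO. Counting itself, 29 of 11114 genes (0.261%) were as low in the library labelled Tle3cKO, and among the 164 abundant genes its ratio ranked 2 from the lowest, next to Tmsb4x.

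Actg1 (ENSMUSG00000062825.15, mm10 chr11:120345690-120348542, minus strand), gamma-actin, had 1877 FPKM in the library labelled Tle3cKO and 2110 FPKM in Tle4cKO, against 2248 FPKM in WT. Its log2 ratios were -0.26 and -0.09, small beside those of Actb in the library labelled Tle3cKO and Tmsb4x in both. The ratio of Actb to Actg1 within a library was 0.501 in the library labelled Tle3cKO and 0.735 for Tle4cKO, against 0.796 in WT. Actb and Actg1 together summed to 2816 FPKM in the library labelled Tle3cKO, 3660 FPKM in Tle4cKO and 4037 FPKM in WT. Tmsb4x per unit of that sum was 2.69 in the library labelled Tle3cKO and 2.33 for Tle4cKO, against 4.39 in WT, so Tmsb4x was lower relative to its binding partner as well.

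The coding sequences of Actb and Actg1, each of 1128 bases, are 88.7% identical, with a longest shared run of 62 bases. Of the 50-base stretches of Actb transcripts, 9.12% occur in other annotated genes, and of those of Actg1 36.3%, mostly processed pseudogenes. Actb and Actg1 share 30 such stretches. The Actg1 value is thus the least certain among the 10 genes in this respect, together with Tmsb10.

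Pfn1 (ENSMUSG00000018293.4, mm10 chr11:70651850-70654644) encodes profilin 1 and competes with beta-thymosins for monomers. It had 684 FPKM in the library labelled Tle3cKO and 754 FPKM in Tle4cKO, against 787 FPKM in WT, with log2 ratios of -0.20 and -0.06. Cfl1 (ENSMUSG00000056201.8, mm10 chr19:5490455-5495201) encodes cofilin 1, and it had 841 FPKM in the library labelled Tle3cKO and 934 FPKM in Tle4cKO, against 988 FPKM in WT, with log2 ratios of -0.23 and -0.08. Relative to each other these monomer-handling genes varied little: the ratio of Pfn1 to Cfl1 was 0.813 in the library labelled Tle3cKO, 0.807 in Tle4cKO and 0.797 in WT. Actb per unit of Pfn1, in contrast, was 1.37 in the library labelled Tle3cKO and 2.06 for Tle4cKO, against 2.27 in WT.

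Arpc1b (ENSMUSG00000029622.16, mm10 chr5:145114215-145130705) and Arpc2 (ENSMUSG00000006304.14, mm10 chr1:74236084-74268209) encode Arp2/3 subunits, and ARPC1B is the form of its subunit that prevails in blood cells. Arpc1b had 368 FPKM in the library labelled Tle3cKO and 393 FPKM in Tle4cKO, against 419 FPKM in WT, with log2 ratios of -0.19 and -0.09. Arpc2 had 356 FPKM in the library labelled Tle3cKO and 383 FPKM in Tle4cKO, against 379 FPKM in WT, with log2 ratios of -0.09 and 0.01. Neither came near the difference seen for Tmsb4x. Arpc1b exceeded its alternative Arpc1a by 8.62 times in the library labelled Tle3cKO, 8.45 times in Tle4cKO and 8.34 times in WT, so the use of the blood-cell form was much the same in all libraries.

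Coro1a (ENSMUSG00000030707.15, mm10 chr7:126699773-126707787, minus strand), coronin 1A, had 222 FPKM in the library labelled Tle3cKO and 241 FPKM in Tle4cKO, against 281 FPKM in WT. Its log2 ratios of -0.34 and -0.22 were next in size to those of Tmsb4x and Actb in the library labelled Tle3cKO, and next to Tmsb4x alone in Tle4cKO. Lcp1 (ENSMUSG00000021998.16, mm10 chr14:75131101-75230842), L-plastin, a bundler of filaments, had 302 FPKM in the library labelled Tle3cKO and 334 FPKM in Tle4cKO, against 362 FPKM in WT, with log2 ratios of -0.26 and -0.11. The deposited position of the Lcp1 row, chr14:75004109-75388146, is wider than the annotated gene, so reads of neighbours may be in it.

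Taking the 10 genes against WT, all 10 were lower in the library labelled Tle3cKO, where 52.4% of all genes were lower, and 3 were lower by at least 1.2-fold, namely Tmsb4x, Actb and Coro1a, where 8% of all genes were. At 1.1-fold the count was 9, against 21.9% of all genes. At 1.5-fold the count was 2, Tmsb4x and Actb, against 1.09% of all genes, and at 2-fold it was 1, Tmsb4x, against 0.207%. In Tle4cKO 8 of the 10 were lower than WT, where 50.6% of all genes were, and Tmsb4x alone was lower by at least 1.2-fold, where 8.69% of all genes were, and also by 1.5-fold (1.7%) and 2-fold (0.486%). At 1.1-fold the count there was 3, against 21.3%. Coro1a lay just inside 1.2-fold in the first comparison, with a ratio of 0.792, and Actg1 and Lcp1 just outside it, with 0.835 and 0.834. Tmsb4x, by which the set was chosen, is in all these counts, so its part in them is no result. Without it 9 of 9 were below WT in the library labelled Tle3cKO (52.4% of all genes), and 2 were lower by at least 1.2-fold (8%). For Tle4cKO 7 of 9 were below WT (50.6% of all genes), and 0 were lower by at least 1.2-fold (8.69%). The median log2 ratio of these 9 genes was -0.23 in the library labelled Tle3cKO and -0.09 for Tle4cKO, against medians of -0.01 and -0.00 over all genes. The standard deviation of the log2 ratios over all genes, which describes genes and not replicates, was 0.259 and 0.276.

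The members are abundant, and other abundant genes were also lower in the library labelled Tle3cKO. Of the 158 other genes averaging 500 FPKM or more, 135 were below WT there (52.4% of all genes), with a median log2 ratio of -0.07. By at least 1.2-fold 12 were lower, where 8% of all genes were. In Tle4cKO 55 of these 158 were below WT (50.6% of all genes), with a median of 0.05. There 4 were lower by at least 1.2-fold, where 8.69% of all genes were. Scaling the libraries to equal summed FPKM gave 9 of the 10 genes below WT in the library labelled Tle3cKO, against 31.6% of all genes. By at least 1.2-fold 2 were then lower, against 4.53%, and Tmsb4x is in both counts. Arpc2 was then level with WT, at 0.01, and Coro1a no longer passed 1.2-fold, while Tmsb4x was at -1.13 and Actb at -0.83. Of all genes past 1.2-fold in either direction in this comparison, 44.5% were lower as deposited, 21.1% with equal totals and 29.3% with totals that leave out the 10 highest genes. In Tle4cKO against the library labelled Tle3cKO, these shares were 56.8%, 75% and 73.5%. Set against the median of all genes, the median of the 10 genes in the library labelled Tle3cKO was at -0.24 as deposited. It was at -0.23 under each other scaling. A scaling shifts all genes of a library alike, so this distance could hardly change and is no check.

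**Figure D2:**
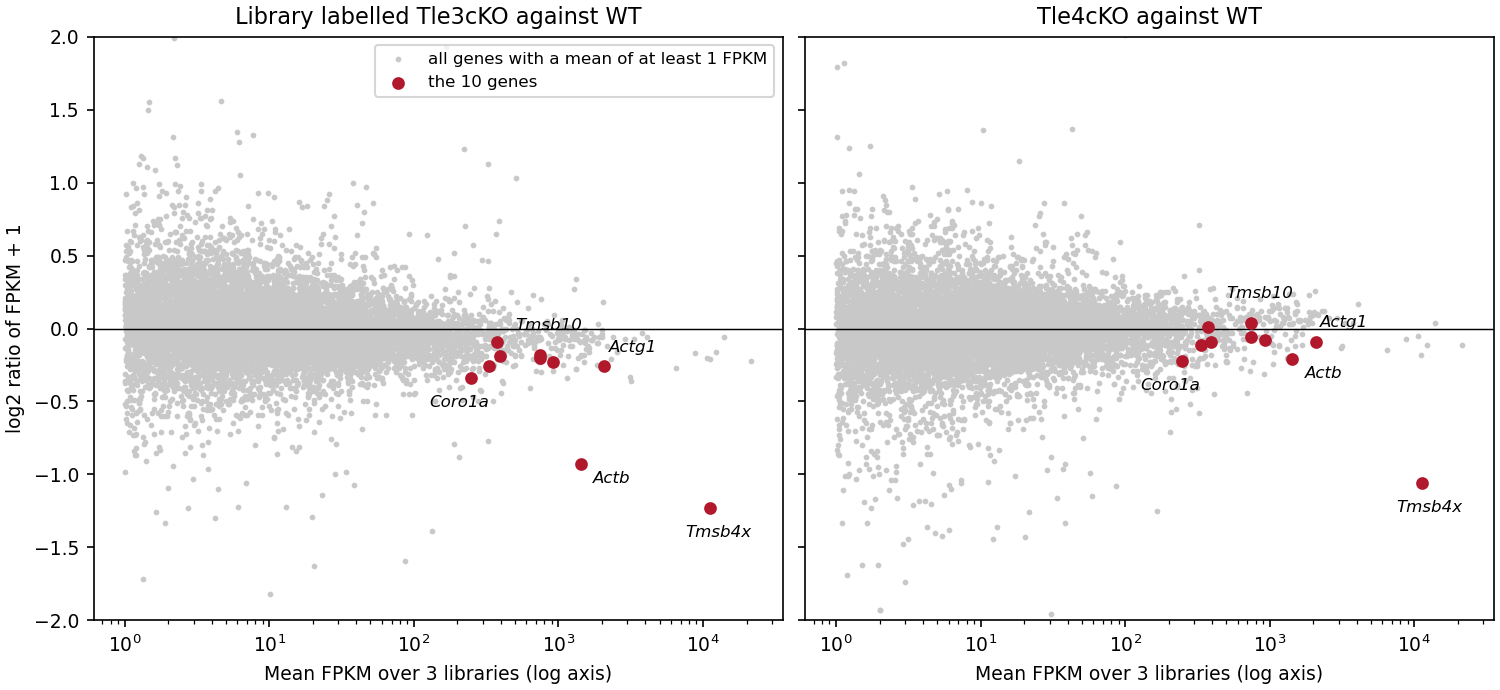
Log2 ratio of FPKM + 1 to WT against the mean FPKM over the 3 libraries (log axis), for all 11114 genes (grey) and the 10 genes (red), in the library labelled Tle3cKO (left) and Tle4cKO (right). The axis stops at 2 on either side, which leaves 7 and 14 genes undrawn. Tmsb4x lies at -1.23 and -1.06, apart from the other abundant genes, Actb at -0.93 on the left and -0.21 on the right, and the rest of the 10 between -0.34 and 0.04.

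In Tle4cKO against the library labelled Tle3cKO, all 10 genes were higher, where 52.4% of all genes were, and Actb alone was higher by at least 1.2-fold, with a log2 ratio of 0.72, where 7.41% of all genes were. Actb had 1550 FPKM in Tle4cKO and 939 FPKM in the library labelled Tle3cKO, the largest such ratio among the 164 abundant genes. The other 9 lay between 0.10 and 0.21. The median of the 158 other abundant genes was 0.11 in the same direction, so those 9 differed little from them.

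Actin genes outside the 10 were read from 14 lists, chosen with earlier results of these data known. Of 169 genes 166 had a row and 141 passed the filter. In the library labelled Tle3cKO 86 of the 141 were below WT (61%, against 52.4% of all genes), 17 were lower and 16 higher by at least 1.2-fold (8% and 9.96% of all genes), and the median log2 ratio was -0.04. In Tle4cKO 73 were below WT (51.8%, against 50.6%), 11 were lower and 7 higher by at least 1.2-fold (8.69% and 7.73% of all genes), and the median was -0.01. None of the 141 was lower by 2-fold or more in the library labelled Tle3cKO, while 1 was in Tle4cKO, Flnc. The wider actin machinery therefore held many genes near WT and did not, as a whole, stand at the level of Tmsb4x.

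**Figure D3:**
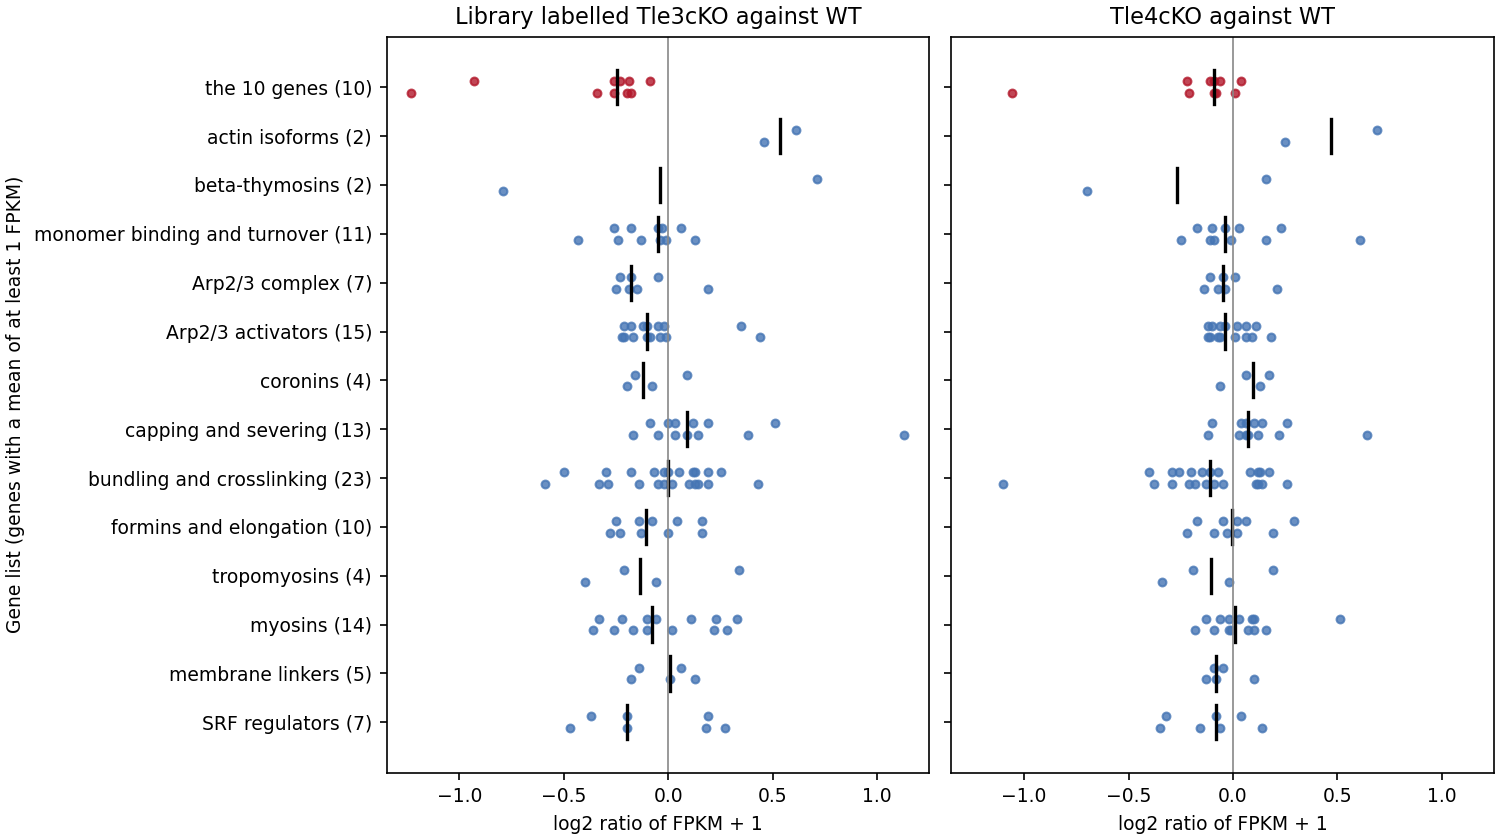
Log2 ratio of FPKM + 1 to WT in the library labelled Tle3cKO (left) and Tle4cKO (right) for the 10 genes (red) and for 13 of the lists of other actin genes (blue), with 1 point per gene that passed the filter, their number in brackets and a black bar at the median. The medians of lists with at least 5 genes lay between -0.20 and 0.09 on the left and between -0.11 and 0.07 on the right.

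Among beta-thymosins and muscle actins little was expressed. Tmsb15l had 0.862 FPKM in the library labelled Tle3cKO and 0.985 FPKM in Tle4cKO, against 2.22 FPKM in WT, while Tmsb15b1 had 2.56, 1.43 and 1.18 FPKM in the same order. Acta2, smooth muscle alpha-actin, had 12.8 FPKM in the library labelled Tle3cKO and 10.9 FPKM in Tle4cKO, against 9.02 FPKM in WT. Acta2 was thus highest in the library where Actb and Actg1 were lowest. Actg2, also above WT in both comparisons, had 6.75, 7.19 and 4.07 FPKM in the same order and did not follow that ranking. The other muscle isoforms did not pass the filter. The list of smooth muscle markers shares Acta2 and Actg2. It summed to 78.4 FPKM in the library labelled Tle3cKO, 63.7 FPKM in Tle4cKO and 48.4 FPKM in WT. Of its 8 measured genes 7 were above WT in both comparisons, where 47.6% and 49.4% of all genes were. In a bulk library fewer cells of a type and less RNA per cell cannot be told apart, and the part of muscle cells in these values was not tested.

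Of 11 other genes for monomer binding and filament turnover, 9 were below WT in the library labelled Tle3cKO (52.4% of all genes). For Tle4cKO 7 were (50.6% of all genes), and the medians were -0.05 and -0.04. Cotl1, a coactosin-like filament binder, had 250 FPKM in the library labelled Tle3cKO and 284 FPKM in Tle4cKO, against 337 FPKM in WT, and was the only one lower by at least 1.2-fold in the library labelled Tle3cKO, at -0.43. Cap1, which recycles monomers with cofilin, had 147 FPKM in the library labelled Tle3cKO and 164 FPKM in Tle4cKO, against 174 FPKM in WT. Gmfg, which takes apart Arp2/3 branches, had 44.9 FPKM in the library labelled Tle3cKO and 50.2 FPKM in Tle4cKO, against 53.9 FPKM in WT. Dbnl, a drebrin-like filament binder, had 33.4, 37.6 and 32.0 FPKM in the same order and was not lower.

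The 7 other Arp2/3 subunits that passed the filter behaved like Arpc1b and Arpc2, except Arpc5l. Actr2 had 162 FPKM in the library labelled Tle3cKO and 180 FPKM in Tle4cKO, against 185 FPKM in WT. Actr3 had 221, 228 and 251 FPKM in the same order, Arpc1a 42.7, 46.5 and 50.2, and Arpc3 630, 654 and 652. Arpc4 had 107, 122 and 128 FPKM, Arpc5 260, 278 and 288, and Arpc5l 22.4, 22.8 and 19.5. Of the 9 measured subunits, the members included, 8 were below WT in the library labelled Tle3cKO (52.4% of all genes). In Tle4cKO 6 were (50.6% of all genes), and the medians were -0.18 and -0.05. No subunit passed 1.2-fold in either comparison, and Arpc5l alone was above WT in both beyond 0.1 on the log2 scale.

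Of the 15 measured activators of Arp2/3, 13 were below WT in the library labelled Tle3cKO (52.4% of all genes). For Tle4cKO 8 were (50.6% of all genes). The medians were -0.10 and -0.04, and no activator was lower by 1.2-fold. Cttn, cortactin, and Nckap1 were higher by at least 1.2-fold in the library labelled Tle3cKO (9.96% of all genes), at log2 ratios of 0.44 and 0.35. No activator was for Tle4cKO (7.73% of all genes). Wipf1, a partner of the WASP protein, had 65.2 FPKM in the library labelled Tle3cKO and 81.3 FPKM in Tle4cKO, against 76.2 FPKM in WT. Hcls1, the cortactin of blood cells, had 130 FPKM in the library labelled Tle3cKO and 144 FPKM in Tle4cKO, against 150 FPKM in WT. Of the 4 other coronins, 3 were below WT in the library labelled Tle3cKO (52.4% of all genes) and 1 for Tle4cKO (50.6%). Coro1b, the nearest in level to Coro1a, had 113 FPKM in the library labelled Tle3cKO and 122 FPKM in Tle4cKO, against 127 FPKM in WT.

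More genes of capping and severing proteins lay above WT than below it. Of 13 measured genes 10 were above WT in the library labelled Tle3cKO (47.6% of all genes) and 11 for Tle4cKO (49.4%). The medians were 0.09 and 0.07. Scin, scinderin, which severs and caps filaments, had 56.6 FPKM in the library labelled Tle3cKO and 61.9 FPKM in Tle4cKO, against 39.3 FPKM in WT, log2 ratios of 0.51 and 0.64. Capg, a capping protein of macrophages, had 92.3, 84.3 and 80.6 FPKM in the same order. Neither gene was lower than WT in any comparison.

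Among 23 bundling and crosslinking genes, 5 were lower and 1 higher by at least 1.2-fold in the library labelled Tle3cKO, where 8% and 9.96% of all genes were. For Tle4cKO 5 were lower and 0 higher, where 8.69% and 7.73% of all genes were. Zyx, zyxin, a focal adhesion protein, had 50.1 FPKM in the library labelled Tle3cKO and 67.0 FPKM in Tle4cKO, against 76.1 FPKM in WT, log2 ratios of -0.59 and -0.18. Cnn2, calponin 2, had 36.5, 44.9 and 52.1 FPKM in the same order, with log2 ratios of -0.50 and -0.21. Zyx and Cnn2 thus had their lowest level in the library labelled Tle3cKO, as Actb did. Vcl, vinculin, lay the other way, with 20.1 FPKM in the library labelled Tle3cKO and 15.5 FPKM in Tle4cKO, against 14.7 FPKM in WT. Marcksl1, which binds filaments and membrane, had 230 FPKM in the library labelled Tle3cKO and 199 FPKM in Tle4cKO, against 262 FPKM in WT.

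Of 4 tropomyosins, which line filaments, Tpm4 was lower in both comparisons: 192 FPKM in the library labelled Tle3cKO and 200 FPKM in Tle4cKO, against 254 FPKM in WT, log2 ratios of -0.40 and -0.34. Tpm3, the most abundant of them, had 305, 315 and 319 FPKM in the same order and lay near WT, and Tpm2 was higher in the library labelled Tle3cKO, at 0.34. Of 14 myosin genes 8 were below WT in the library labelled Tle3cKO (52.4% of all genes) and 7 for Tle4cKO (50.6%). By 1.2-fold 2 were lower and 2 higher in the library labelled Tle3cKO (8% and 9.96% of all genes). For Tle4cKO 0 were lower and 1 higher (8.69% and 7.73% of all genes). Myl6, a light chain of non-muscle myosin, had 352 FPKM in the library labelled Tle3cKO and 422 FPKM in Tle4cKO, against 451 FPKM in WT. Vasp, which lengthens filaments, had 148 FPKM in the library labelled Tle3cKO and 155 FPKM in Tle4cKO, against 180 FPKM in WT.

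Ezrin, radixin and moesin and their partners, 5 genes that link filaments to the membrane, lay between -0.18 and 0.13 in both comparisons.

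Serum response factor (Srf) binds CArG boxes and, with its actin-sensing coactivator Mkl1, drives many actin genes. Srf had 17.3 FPKM in the library labelled Tle3cKO and 17.8 FPKM in Tle4cKO, against 20.0 FPKM in WT, and Mkl1 had 38.4, 45.6 and 44.3 FPKM in the same order. Neither passed 1.2-fold. Of the 7 listed regulators of this pathway, 2 were lower and 1 higher by at least 1.2-fold in the library labelled Tle3cKO. For Tle4cKO 2 were lower and 0 higher. The shares of all genes were 8% and 9.96% in the first comparison and 8.69% and 7.73% in the second. Elk3, an Srf partner, had 7.87 FPKM in the library labelled Tle3cKO and 8.64 FPKM in Tle4cKO, against 11.3 FPKM in WT, log2 ratios of -0.47 and -0.35. Mkl2, a relative of Mkl1, had 3.77, 3.95 and 5.17 FPKM in the same order, with log2 ratios of -0.37 and -0.32, and Elk4 was the gene that was higher, at 0.27 in the library labelled Tle3cKO. RefSeq promoter windows of GRCm38.p6, from 250 bases before to 50 after the start site, were found for 9 of the 10 genes, all but Actb. Windows of Tmsb4x and Actg1 are shown, as the gene with the lowest ratios and as the only one of these 9 with a CArG box, at chrX:167209169-167209468 and chr11:120348446-120348745, both on the minus strand. Capitals mark matches on either strand to the CArG box, to GGGCGG (the GC box), to TATAAA (the TATA box) or to CCAAT, and matches may overlap.

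Tmsb4x: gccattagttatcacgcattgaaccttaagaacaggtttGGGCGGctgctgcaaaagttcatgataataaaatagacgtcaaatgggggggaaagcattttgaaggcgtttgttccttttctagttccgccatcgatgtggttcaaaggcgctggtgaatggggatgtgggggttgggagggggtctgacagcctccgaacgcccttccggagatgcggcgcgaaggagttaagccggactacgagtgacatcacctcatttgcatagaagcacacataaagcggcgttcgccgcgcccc
Actg1: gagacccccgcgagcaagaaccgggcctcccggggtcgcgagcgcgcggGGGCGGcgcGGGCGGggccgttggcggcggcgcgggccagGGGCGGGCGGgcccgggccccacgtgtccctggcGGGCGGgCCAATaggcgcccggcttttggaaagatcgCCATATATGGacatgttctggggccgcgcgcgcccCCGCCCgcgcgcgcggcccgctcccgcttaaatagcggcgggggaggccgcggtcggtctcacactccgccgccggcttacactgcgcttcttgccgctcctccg

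The Actg1 window held 1 CArG box, starting at position -90 from the start site, 6 matches to GGGCGG and 1 to CCAAT. The Tmsb4x window held 1 match to GGGCGG and none to the other motifs. Over 32851 windows of the same length, 1.63% held a CArG box, 35.7% GGGCGG, 13.6% TATAAA and 37.4% CCAAT. A match is a string of letters and does not show binding.

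By the likeness measure, the distance over both log2 ratios to WT in 3 libraries, the genes most like Tmsb4x among 428 others averaging 200 FPKM or more were Ccl5, Ifi27l2a, Rhob, Bcl2a1d, S100a4 and Tpm4. Ccl5, a chemokine, was nearest at a distance of 0.50, with 154 FPKM in the library labelled Tle3cKO and 173 FPKM in Tle4cKO, against 283 FPKM in WT. Ifi27l2a, an interferon-induced gene, followed at 0.66, with 254, 289 and 434 FPKM in the same order. The other 4 were farther off, up to 1.09, so beyond the first 2 the likeness was loose, and Rhob and Tpm4 were the actin genes among them. Genes averaging less than 200 FPKM were not searched. Among these, G530011O06Rik on the X chromosome had log2 ratios to WT of -0.98 and -1.16. Tlr7, Arhgap6 and Hccs, on the same chromosome, had -1.07 and -1.33, -1.06 and -0.71, and -0.79 and -0.97. All of these were nearer to the ratios of Tmsb4x than those of Ccl5, -0.88 and -0.71. Ccl5 and Ifi27l2a were thus the nearest only among genes at or above 200 FPKM. The row of Bcl2a1d is uncertain, since this gene has near-identical copies.

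The neighbours of Tmsb4x on its chromosome were read as well. It lies near the distal end of the X chromosome, and 8 genes that passed the filter lie distal of it. These were taken by position after their values had been seen. Tlr8, its nearest neighbour and a receptor for RNA, had 11.2 FPKM in the library labelled Tle3cKO and 13.0 FPKM in Tle4cKO, against 36.8 FPKM in WT, log2 ratios of -1.63 and -1.43. Tlr7, the next and also an RNA receptor, had 29.0, 24.0 and 61.8 FPKM in the same order, with log2 ratios of -1.07 and -1.33. Both were thus lower by about as much as Tmsb4x or more.

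Farther out, Prps2 had 2.98 FPKM in the library labelled Tle3cKO and 3.10 FPKM in Tle4cKO, against 5.39 FPKM in WT. Msl3 had 9.59, 8.43 and 15.6 FPKM in the same order, Arhgap6 4.41, 5.89 and 10.3, Hccs 23.8, 21 and 42, and G530011O06Rik 26.1, 23.0 and 52.4. Mid1, which in the mouse spans the boundary of the pseudoautosomal region, was the exception, with 49.5 FPKM in the library labelled Tle3cKO and 20.6 FPKM in Tle4cKO, against 41.1 FPKM in WT. Arhgap6 overlaps Hccs, and Mid1 overlaps G530011O06Rik, so reads of these pairs may be mixed.

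In the library labelled Tle3cKO 7 of these 8 genes were lower than WT by at least 1.5-fold, against 1.09% of all genes, with a median log2 ratio of -0.89. In Tle4cKO 8 of 8 were, against 1.7% of all genes, with a median of -0.96. Of the 294 measured X genes proximal of Tmsb4x, 1 (0.34%) was lower by 1.5-fold in the library labelled Tle3cKO and 7 (2.38%) for Tle4cKO, and the median was -0.01 in both. Of the 6 within 3 Mb, none was in the library labelled Tle3cKO, and Gpm6b alone was in Tle4cKO. Rab9, the nearest proximal gene, had 22.0 FPKM in the library labelled Tle3cKO and 23.7 FPKM in Tle4cKO, against 21.1 FPKM in WT. Tmsb4x thus stood at the edge of a run of neighbours that were lower in both libraries or, put the other way, higher in WT. DNA was not measured, and the part of chromosomal position in the Tmsb4x values was not tested.

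**Figure D4:**
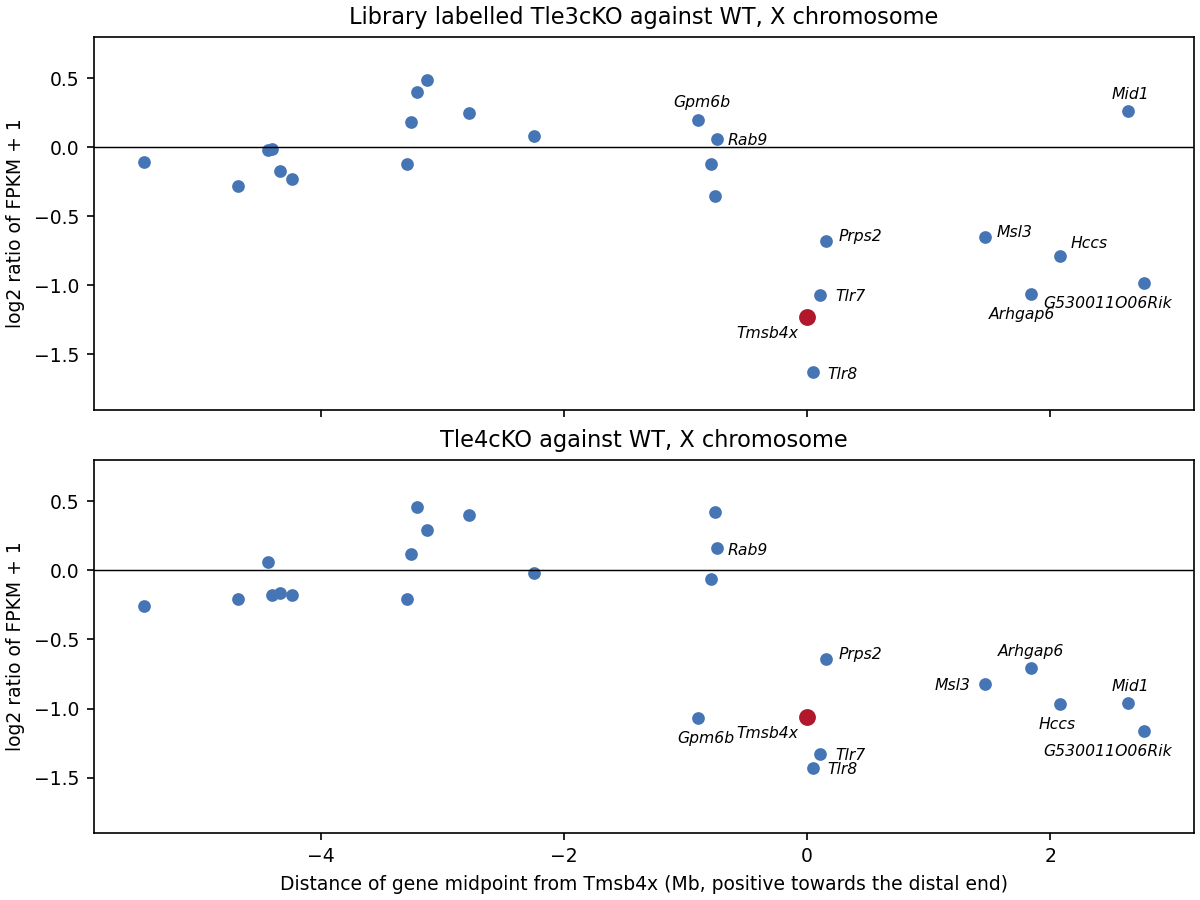
Log2 ratio of FPKM + 1 to WT against the distance of each X gene's midpoint from Tmsb4x (Mb, positive towards the distal end), in the library labelled Tle3cKO (above) and Tle4cKO (below), with 1 point per gene that passed the filter. X genes more than 6 Mb proximal of Tmsb4x are not drawn. Distal of Tmsb4x all points lie between -1.63 and -0.64 except Mid1 at 0.26 in the upper panel. The 6 genes within 3 Mb on the proximal side lie between -0.35 and 0.42 except Gpm6b at -1.07 in the lower panel.

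Other values moved with the libraries as well. In the library labelled Tle3cKO, where Actb was lowest, rows of structural RNA were high: Rn45s had 795 FPKM there and 331 FPKM in Tle4cKO, against 389 FPKM in WT, and Rmrp had 84.3, 19.4 and 17.9 FPKM in the same order. Ccr2, a monocyte receptor, had 12.3 FPKM in the library labelled Tle3cKO and 28.3 FPKM in Tle4cKO, against 28.3 FPKM in WT. The monocyte markers, of which all 6 passed the filter, summed to 187, 206 and 199 FPKM in the same order. The 8 dendritic cell markers summed to 278, 390 and 368 FPKM. Plac8 alone held 150, 156 and 146 FPKM of the monocyte sum, and Ccr7 216, 316 and 305 FPKM of the dendritic cell sum. Fibroblast and endothelial markers summed to 267, 261 and 239 FPKM, and T and NK cell markers to 422, 403 and 414 FPKM. Il7r held 342, 332 and 337 FPKM of the T and NK cell sum, and Cd4 72.8, 62.5 and 71.8 FPKM. That sum thus says little about the other markers of its list. Eosinophil and neutrophil markers summed to 174, 173 and 169 FPKM, with Epx and Camp at 0. Larger differences were seen in Tle4cKO, where B and plasma cell markers summed to 431 FPKM, with 283 FPKM in the library labelled Tle3cKO and 233 FPKM in WT, and epithelial markers to 31.0 FPKM, with 9.39 FPKM in the library labelled Tle3cKO and 4.31 FPKM in WT. The part of RNA quality and of other cells in the values of the 10 genes was not tested.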

How the data were processed

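The authors deposited 1 table of FPKM per library, per the file headers, and TopHat2 2.1.0, Cufflinks 2.2.1 and the genome build mm10 are named in the submitters' processing notes, without the role of each. FPKM is scaled to transcript length and library depth, so a few abundant genes can move all others, and reads that match several genes are divided by estimation. FPKM values do not suit count models, so none was fitted, and 1 library per group allows no test. Log2 ratios were taken on FPKM plus a pseudocount of 1 for genes averaging 1 FPKM or more, and the steps were tested on simulated data. A gene was counted as higher or lower past 1.2-fold, with 1.1-fold, 1.5-fold and 2-fold as other settings. Other scalings, pseudocounts of 0.1 and 5, filters and lengths were tried.

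The 10 genes and all lists were chosen with earlier results of these data known. Besides the 10 genes, the text names up to 4 genes per list with the largest ratios at an average of 10 FPKM or more. It also names all measured Arp2/3 subunits, the targeted genes and the 6 genes most like Tmsb4x at an average of 200 FPKM or more. Genes of lower level, the X genes and those of other cell types were chosen after their values were seen. Of the lists of other actin genes, 1 counts in the totals but is not reported here. Identifiers, coordinates and transcripts are from GENCODE M21, promoters from RefSeq. The software was Python 3.11.15, pandas 2.3.3, numpy 2.4.6 and, for plots, matplotlib 3.10.9.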

Additional observations from a re-analysis of the deposited data

How the results depend on the processing

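Across the settings tried, the log2 ratio of Tmsb4x lay between -1.23 and -1.13 in the library labelled Tle3cKO against WT and between -1.07 and -1.03 in Tle4cKO against WT, apart from its ratio to Tmsb10 in the same library. As that ratio, chosen after seeing the data, it was -1.05 in the library labelled Tle3cKO against WT, and -0.04 in Tle4cKO against the library labelled Tle3cKO, where it was 0.17 as deposited. The count of the 10 genes lower by at least 1.2-fold was 3 in the library labelled Tle3cKO, and a threshold of 1.1-fold gave 9 and of 2-fold 1. In Tle4cKO it was 1, and a threshold of 1.1-fold gave 3. Tmsb4x, by which the set was chosen, is in each of these counts. At 1.1-fold 21.9% and 21.3% of all genes were lower in these comparisons. The median of the other actin genes lay between -0.05 and 0.05 in the library labelled Tle3cKO. No called value changed sign. No paired analysis was possible because each genotype is 1 library without replicate numbers. The genotype, the pool of mice, the sort and the library cannot be told apart. The depth is unknown, so no counting error can be given.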

Other observations

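Some less abundant actin genes, picked after their values were seen, differed between the libraries in other ways. Flnc, a filamin of muscle and other cells, had 8.30 FPKM in the library labelled Tle3cKO and 2.97 FPKM in Tle4cKO, against 7.52 FPKM in WT, and Cnn3 had 28.2, 19.6 and 25.8 FPKM in the same order. The glial markers, of which 4 of 5 passed the filter, summed to 33.7 FPKM in the library labelled Tle3cKO and 11.7 FPKM in Tle4cKO, against 34.0 FPKM in WT. Dbn1, drebrin, was high in Tle4cKO alone, with 4.34 FPKM in the library labelled Tle3cKO, 7.38 FPKM in Tle4cKO and 4.49 FPKM in WT, the library in which epithelial and plasma cell markers were also high. Avil, advillin, was high in the library labelled Tle3cKO, with 2.45 FPKM, 0.738 FPKM in Tle4cKO and 0.574 FPKM in WT. Whether these transcripts came from other cells was not tested.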
